A study of Mus musculus with 8 samples.

Results

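The 9 genes described here, Tyr, Tyrp1, Dct, Slc45a2, Oca2, Mlana, Mitf, Kit and Ednrb, belong to the melanocyte pigment programme and were 9 of the 36536 Ensembl genes counted in each library. Their rows were found by symbol in the NCBIM37 annotation (the mouse build also called mm9). The libraries were made by RNA-seq from cells sorted from freshly dissected cochleas of mice that all carried the Lfng-EGFP BAC transgene (B6;FVB-Tg(Lfng-EGFP)HM340Gsat/Mmucd), in which regulatory sequence of the Lfng gene drives GFP in most supporting cell types of the organ of Corti. Only the brightest GFP+ cells were taken as the supporting cell fraction, and GFP- cells were the comparison. Each fraction was sequenced at postnatal day 1 (P1) and postnatal day 6 (P6), in 2 replicate libraries per group and 8 in all. No group was treated, and the labels do not say whether replicates came from separate animals, so the p-values below measure the spread between these samples.

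Melanocytes are neural crest cells that make melanin inside a lysosome-related organelle, the melanosome. In the cochlea they are best known as the intermediate cells of the stria vascularis, where they are needed for the endocochlear potential that hair cells use. Supporting cells come from the otic epithelium and do not make pigment. The 2 ages were dissected differently: at P1 the lateral wall and stria vascularis were separated from the sensory tissue, while at P6 they were cut away only in part, so that age and dissection cannot be told apart. FVB is an albino strain through a change in Tyr, and the labels give no coat colour or Tyr genotype for these mice on a B6;FVB background. A transcript count does not tell whether the enzyme it encodes is active.

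MITF is the transcription factor that directs the pigment genes, and it is known to bind the M-box, TCATGTG. The letters before the start sites of the 3 tyrosinase family members are shown, since these genes encode enzymes of the melanin pathway and part from each other with age. The sequences below are from RefSeq (GRCm38.p6) and each matched NCBIM37 exactly at a single place on its chromosome. They run 5′ to 3′ along the gene, with TCATGTG or its reverse complement CACATGA in capitals. The Tyr window lies on the minus strand at chr7:94642023-94642122, 100 bases that end at the base before the RefSeq start, which itself lies 79 bases upstream of the start annotated in NCBIM37. The Tyrp1 window is 30 bases on the plus strand at chr4:80480058-80480087, inside an exon of the NCBIM37 gene model, whose start is 90 bases further upstream than that of RefSeq. The Dct window covers 150 bases of the minus strand at chr14:118451569-118451718, upstream of the start on which both annotations agree.
Tyr: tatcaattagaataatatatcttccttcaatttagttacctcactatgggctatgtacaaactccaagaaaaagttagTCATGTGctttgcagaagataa
Tyrp1: gtggggagggagTCATGTGctgcctagtag
Dct: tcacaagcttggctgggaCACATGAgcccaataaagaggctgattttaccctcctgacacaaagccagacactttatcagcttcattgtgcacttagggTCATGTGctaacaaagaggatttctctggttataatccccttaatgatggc
TCATGTG was searched on both strands in windows of 300 bases, from 250 before to 50 after each start, and was found in 3.77% of 32851 RefSeq windows. It began at position -22 in Tyr, at -47 in Tyrp1 and at -151 in Dct, and in all 3 it was followed by CT. The longer run TCATGTGCT was present in 0.408% of the windows. Dct held a CACATGA as well, at -232. Windows were found for 7 of the 9 members, and those of Mitf, Kit, Ednrb and Oca2 did not hold these letters. Slc45a2 and Mlana had no entry. A match is a description of the letters and does not show that the site is used.

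Mitf is transcribed from several starts. Melanocytes use a start in the downstream part of the gene. It has a cyclic AMP response element (TGACGTCA) through which MSH signalling is known to act. The window shown, that of the most downstream of 3 RefSeq starts, was picked because it holds TGACGTCA. These 100 bases lie on the plus strand at chr6:97941577-97941676 in NCBIM37, in an intron of the longer transcripts, with TGACGTCA in capitals.
Mitf: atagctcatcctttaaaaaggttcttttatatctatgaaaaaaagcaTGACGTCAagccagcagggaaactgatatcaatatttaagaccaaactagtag
TGACGTCA, a palindrome, began at -153 here, was absent from the windows of the other 2 Mitf starts and was present in 1.79% of all windows. Its presence in the window shown was set by the choice of that window and is not a finding. The deposited counts give 1 value per gene, so transcripts from the different Mitf starts were added together.

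Gene totals ran from 17769024 to 67695039 read pairs per library, and 64.7% to 76.2% of all listed counts fell on genes. Levels are given as CPM, the count of a gene per 1000000 counts of the library's gene total. The cell types were checked by markers: the summed CPM of 6 supporting cell markers was 4181 to 6510 in the GFP+ libraries and 337 to 441 in the GFP- libraries. The sum of 6 hair cell markers was also higher in GFP+ cells (173 to 310 against 29.7 to 54.6). Not every marker followed its sum. At P1 the supporting cell marker Slc1a3 was lower in GFP+ cells (157 and 157 against 379 and 312 CPM) and made up most of the GFP- sum. At P6 it was slightly higher in GFP+ cells (252 and 268 against 217 and 230 CPM). The hair cell markers Slc17a8 (4.43 and 4.58 against 4.51 and 5.28 CPM) and Tmc1 overlapped between the fractions at P1. The P6 GFP+ replicate 2 stood apart from replicate 1. Its summed Schwann cell markers were at 2324 against 930.2 CPM, endothelial markers at 221 against 54.7, macrophage markers at 72.7 against 32.1, and supporting cell markers at 4181 against 5941. Markers of marginal cells of the stria vascularis summed to 826 against 495 CPM. P6 GFP- sums were 1545 and 1810 CPM for Schwann cells, 318 and 317 for endothelial cells, 499 and 446 for macrophages and 1228 and 972 for marginal cells. The Schwann cell sum of the GFP+ replicate 2 thus lay above both GFP- libraries. Among marginal cell markers, its Kcne1 (22.6 CPM) was above the GFP- levels (5.09 and 5.91) and its Slc12a2 (375 CPM) below them (1097 and 842). Several of the members' fold changes that rest on the P6 GFP+ replicate 2 are also given without that library.

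The pigment genes were first compared between the 2 fractions at P1, to see how far the bright GFP+ fraction was free of melanocyte transcripts. Tyr, Tyrp1, Dct, Slc45a2, Mlana and Mitf were lower in GFP+ than in GFP- cells by more than 4-fold, Kit and Ednrb were lower by less, and Oca2 did not separate. A gene met the criteria when its p and adjusted p were below 0.01 and its fold change was above 4, in edgeR's quasi-likelihood test with Benjamini-Hochberg adjustment over all genes tested. At P1, 6 of the 9 members met them, all lower in GFP+ cells, where 11.4% of the 18682 genes tested did so in that direction. With adjusted p below 0.01 at any fold, 8 of 9 were lower in GFP+ cells, against 20.7% of all genes.

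Tyr (ENSMUSG00000004651, chr7:94574910-94641943, minus strand) encodes tyrosinase, the enzyme that starts melanin synthesis. At P1, its level in GFP- cells was 43.8 and 35.7 CPM, while the GFP+ pair held 5 and 1 counts (0.109 and 0.0402 CPM). The difference was -8.72 ± 0.31 on the log2 scale (SE, adjusted p = 1.4e-05 by edgeR's quasi-likelihood test). The fractions lay far apart, and the GFP+ level was close to the limit of detection. Over both libraries of each group the GFP- to GFP+ ratio of the counts per total was 456, with an exact 95% interval of 209 to 1244 that covers counting error only.

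Dct (ENSMUSG00000022129, chr14:118412014-118451468, minus strand) encodes dopachrome tautomerase, which acts one step after tyrosinase in the eumelanin branch. At P1 it was measured at 321 and 210.0 CPM in GFP- cells, compared with 0.807 and 2.57 CPM in GFP+ cells (37 and 64 counts), a log2 difference of -7.34 ± 0.49 (adjusted p = 9.56e-05, edgeR quasi-likelihood test). Slc45a2 (ENSMUSG00000022243, chr15:10930476-10958988, plus strand), a melanosome transporter whose loss dilutes coat colour, was at 19.1 and 15.8 CPM in GFP- cells and at 0.109 CPM (5 counts) and 0 in GFP+ cells. Both genes had every GFP+ library far below every GFP- library. For Slc45a2 the pooled GFP- to GFP+ ratio was 241, with an exact 95% counting interval of 103 to 744.

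Tyrp1 (ENSMUSG00000005994, chr4:80480027-80497623, plus strand), the tyrosinase-related protein that stabilises tyrosinase, was much less abundant, at 3.11 and 1.89 CPM in P1 GFP- cells. The GFP+ libraries held 1 and 0 counts. The pooled ratio was 166 with an exact 95% interval of 29.5 to 6582, the upper bound being loose because it rests on 1 count. Mlana (ENSMUSG00000024806, chr19:29772411-29782938, plus strand) encodes MART-1, a melanosome membrane protein used as a melanocyte marker. It had no count in either P1 GFP+ library and 2.56 and 1.98 CPM in the GFP- libraries (97 and 125 counts), so that it was at least 51.8-fold higher in GFP- cells, taking 3 counts over the 2 libraries as the limit that a count of 0 allows.

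The remaining 4 members, Mitf, Kit, Ednrb and Oca2, differed less between the fractions at P1. Of these, Mitf, Kit and Ednrb are also used outside the pigment lineage. Mitf (ENSMUSG00000035158, chr6:97757052-97971352, plus strand), which macrophages and mast cells also express, was at 38.8 and 30.8 CPM in GFP- cells and at 7.55 and 6.83 CPM in GFP+ cells (log2 difference -2.16 ± 0.17, adjusted p = 1.77e-04, edgeR quasi-likelihood test). Kit (ENSMUSG00000005672, chr5:75970941-76052747, plus strand) encodes the receptor tyrosine kinase on which melanoblast survival depends, and it is a mast cell receptor as well. It was at 84.2 and 96.4 against 20.5 and 23.3 CPM, and its 3.85-fold difference lay just under the fold criterion (log2 -1.95 ± 0.11, adjusted p = 5.15e-05). Ednrb (ENSMUSG00000022122, chr14:104213842-104243390, minus strand), the endothelin receptor that melanoblasts and glia share, was at 507 and 518 against 227 and 182 CPM (log2 -1.22 ± 0.14, adjusted p = 8.66e-04). In these 3 genes the libraries of the fractions did not overlap, with the GFP+ level well above 0; 8 of the 9 members and 44.9% of all genes were without overlap and lower in GFP+ cells.

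Oca2 (ENSMUSG00000030450, chr7:63495130-63791887, plus strand), which encodes the melanosomal membrane protein mutated in pink-eyed dilution, behaved differently from the other pigment genes. It was at 0.792 and 1.96 CPM in P1 GFP- cells and at 1.53 and 0.803 CPM in P1 GFP+ cells, and the fractions overlapped (log2 difference -0.12, adjusted p = 0.87, edgeR quasi-likelihood test). The sign of this small difference turned when the GFP+ replicate 2 was left out (log2 0.26) or the GFP- replicate 2 was left out (log2 0.72).

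**Figure D1:**
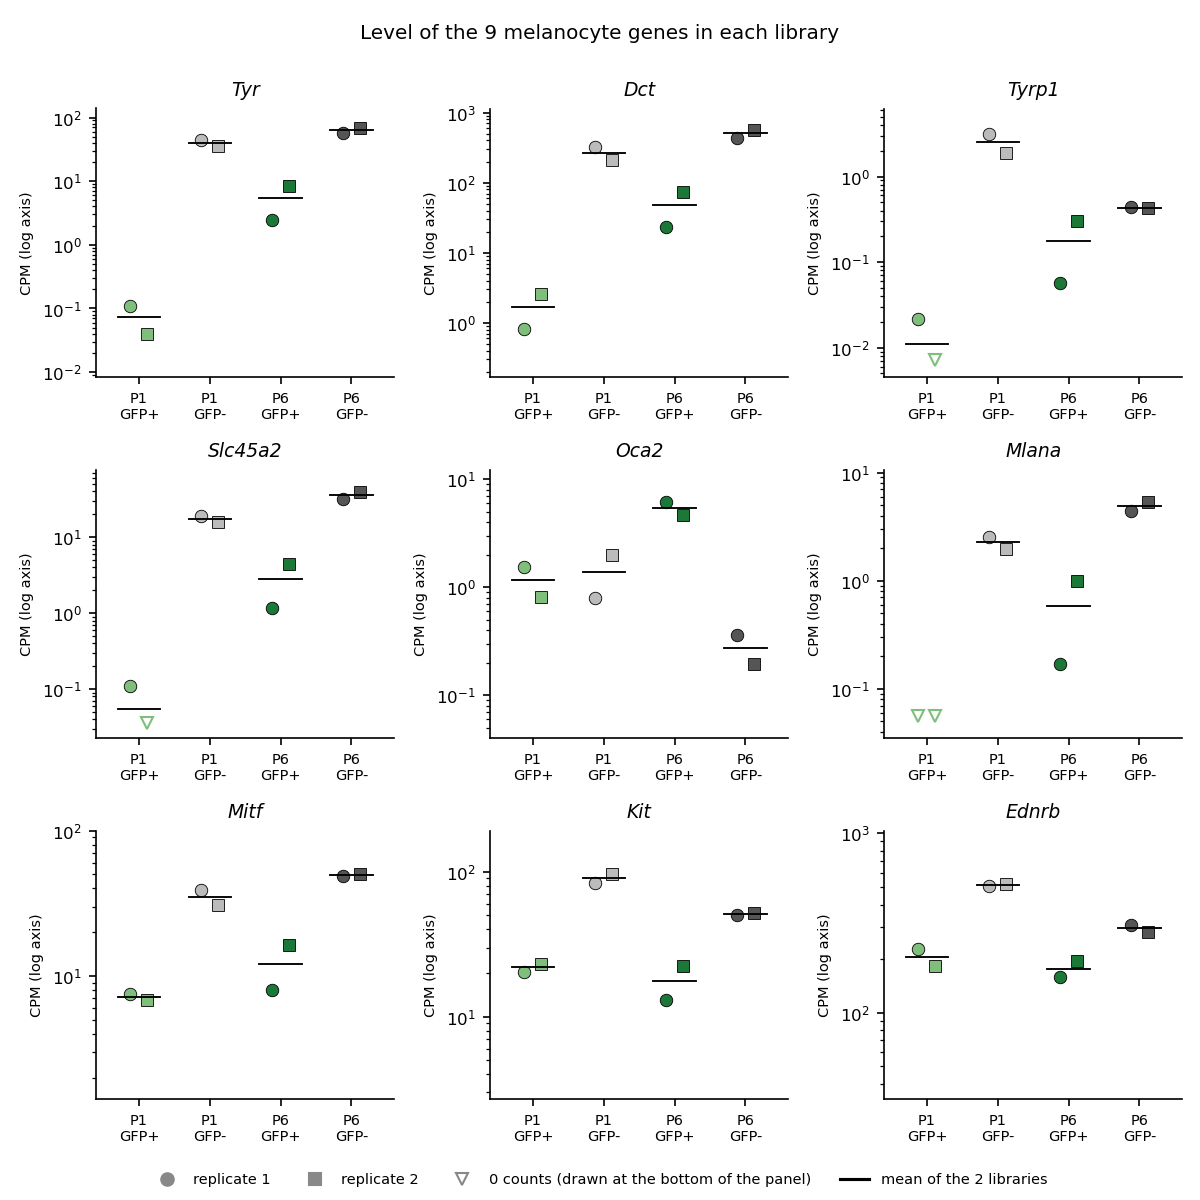
CPM of each of the 9 genes (log axis, a separate range in each panel) in the 8 libraries, with circles for replicate 1, squares for replicate 2, open triangles for libraries without a count and a line at the mean of each group. Tyr, Dct, Slc45a2 and Mlana are lowest in P1 GFP+ cells and highest in P6 GFP- cells, Tyrp1 is highest in P1 GFP- cells, and Oca2 is highest in P6 GFP+ cells at 6.13 and 4.65 CPM.

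To compare members with one another, levels were divided by the union exon length of each gene (CPM per kilobase). In P1 GFP- cells the order of the group means was Ednrb (127), Dct (107), Kit (15.5), Tyr (7.35), Slc45a2 (5.85), Mitf (5.58), Mlana (3.64), Tyrp1 (0.884) and Oca2 (0.348). Ednrb and Dct overlapped between libraries, as did Slc45a2 and Mitf. In P6 GFP- cells Dct led with 204 CPM per kilobase, followed by Ednrb (73.1), Slc45a2 (11.9), Tyr (11.7), Kit (8.76), Mitf (7.95), Mlana (7.82), Tyrp1 (0.153) and Oca2 (0.0693). Here Slc45a2 overlapped with Tyr, and Mitf with Mlana. In P1 GFP+ cells Ednrb (50.7), Kit (3.75) and Mitf (1.15) came before Dct (0.680), with Oca2 at 0.294 and Slc45a2 (0.0183), Tyr (0.0138), Tyrp1 (0.00386) and Mlana (0) below it. Dct overlapped with Oca2 between these libraries, and the order of Slc45a2, Tyr and Tyrp1, which overlapped, rests on 0 to 5 counts per library. In bulk libraries such as these, fewer cells of a type and less RNA per cell cannot be told apart.

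The same comparison at P6 gave smaller differences for the pigment genes and a change of direction for one. Tyr, Dct, Slc45a2 and Mitf were lower in GFP+ cells and met the criteria, which 3.1% of the 18294 genes tested did in that direction. Oca2 met them in the other direction, as did 4.88% of genes. At this age the median log2 difference of the 9 members was -2.03, against -7.10 at P1 (-5.70 with Mlana at its bound), while the median over all genes tested was -0.02 at P6 and 0.01 at P1.

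In the P6 GFP+ libraries Dct stood at 23.2 and 73.0 CPM, against 440.0 and 572 CPM in the GFP- libraries (log2 difference -3.41 ± 0.55, adjusted p = 0.0086, edgeR quasi-likelihood test). Tyr was at 2.48 and 8.47 against 57.1 and 69.3 CPM (log2 -3.51 ± 0.53, adjusted p = 0.0072), and Slc45a2 at 1.18 and 4.39 against 32.0 and 38.9 CPM (log2 -3.63 ± 0.54, adjusted p = 0.0069). In each of the 3 genes, replicate 2 of the GFP+ libraries held more than replicate 1, yet both lay below the GFP- range. The size of the difference rested on which of them was used: without the GFP+ replicate 2 the log2 differences were -4.65 for Tyr, -4.42 for Dct and -4.88 for Slc45a2, and without replicate 1 they were -2.87, -2.77 and -2.99, and the criteria were met either way. Mitf was at 7.99 and 16.3 against 49.0 and 50.1 CPM (log2 -2.03 ± 0.33, adjusted p = 0.0087). It fell short of 4-fold without the GFP+ replicate 1 (log2 -1.58) and was at log2 -2.61 without replicate 2.

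Mlana was at 0.169 and 1.00 CPM in P6 GFP+ cells (3 and 30 counts) and at 4.41 and 5.33 CPM in GFP- cells, a log2 difference of -2.94 ± 0.63 that did not meet the criteria (adjusted p = 0.019, edgeR quasi-likelihood test). It met them without the GFP+ replicate 2 (log2 -4.81, adjusted p = 1.44e-06), without the GFP+ replicate 1 (log2 -2.25, adjusted p = 7.91e-05), with DESeq2 (8.45e-05), with no filter (4.61e-05) and with all 8 libraries in the edgeR fit (0.0054). Kit, at 12.9 and 22.3 against 50.2 and 52.0 CPM, and Ednrb, at 158 and 193 against 308 and 282 CPM, also missed them (log2 -1.54 and -0.76, adjusted p = 0.011 and 0.028, or log2 -1.96 and -0.88 without the GFP+ replicate 2). The libraries of these 3 genes did not overlap between the fractions, which also held for 37.6% of all genes in this direction. Tyrp1 had 1 and 9 counts in the GFP+ libraries (0.0563 and 0.301 CPM) and 27 and 29 counts in the GFP- libraries (0.438 and 0.428 CPM), and the difference did not pass (log2 -1.11 ± 0.66, adjusted p = 0.25, or log2 -2.87 and adjusted p = 0.056 without the GFP+ replicate 2).

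Oca2 was at 6.13 and 4.65 CPM in P6 GFP+ cells (109 and 139 counts) and at 0.357 and 0.192 CPM in GFP- cells (22 and 13 counts). It was thus higher in the GFP+ libraries, by 4.28 ± 0.45 on the log2 scale (adjusted p = 0.0027, edgeR quasi-likelihood test), or by 4.50 without the GFP+ replicate 2. Replicate 1, the library with less of the other pigment transcripts, held the higher Oca2 level. The 5 members that met the criteria at P6 did not keep their calls when either GFP- library was left out. The spread then rested on the GFP+ pair alone, and calls over all genes fell as well. Without the GFP- replicate 1 the log2 differences were -3.60 for Tyr, -3.53 for Dct, -3.73 for Slc45a2, -1.99 for Mitf and 4.84 for Oca2. Without the GFP- replicate 2 they were -3.40, -3.22, -3.53, -2.04 and 3.88. With library totals in place of TMM scaling, only Oca2 met the criteria. The adjusted p of Tyr, Dct, Slc45a2 and Mitf then ran from 0.011 to 0.013 (edgeR quasi-likelihood test).

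**Figure D2:**
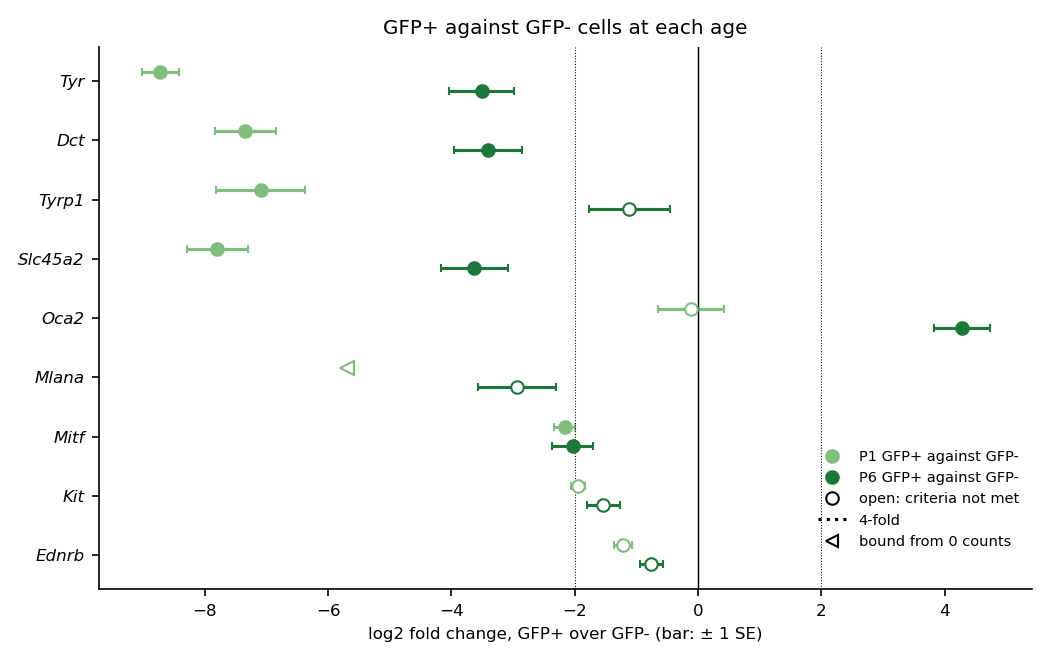
Log2 fold change of GFP+ over GFP- cells at P1 (light) and P6 (dark) for each gene, with bars of 1 SE from edgeR; filled points met the criteria and dotted lines mark 4-fold. Mlana at P1 is drawn at its bound of -5.70 as an open triangle, Tyrp1 at P1 is a fitted value on 1 GFP+ count, and Oca2 at P6 is the single point far to the right, at 4.28.

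The level left in the GFP+ libraries was then expressed as a percentage of the GFP- mean of the same age. At P1 it was 0.275% and 0.101% for Tyr, 0.304% and 0.968% for Dct, and 0.625% and 0 for Slc45a2. At P6 it was 3.92% and 13.4% for Tyr, 4.59% and 14.4% for Dct, 3.33% and 12.4% for Slc45a2, and 3.47% and 20.6% for Mlana. These 4 genes thus moved together between the P6 GFP+ replicates. Other genes of the GFP- fraction moved with them: over the 746 genes outside the members whose P1 level in GFP- cells was 16-fold that in GFP+ cells or more, the median percentage in GFP+ cells was 3.28 and 3.20 at P1, against 6.45 (replicate 1) and 21.9 (replicate 2) at P6. These genes were picked on the P1 values, so their P1 percentages are a description. Whether carry-over of GFP- cells or of their RNA accounts for the P6 values was not tested.

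Mitf, Kit and Ednrb left larger shares. Mitf in GFP+ cells was at 21.7% and 19.6% of its GFP- mean at P1 and at 16.1% and 32.8% at P6, Kit at 22.7% and 25.8% and then 25.3% and 43.7%, and Ednrb at 44.3% and 35.4% and then 53.6% and 65.3%. Those 3 genes thus stood well above Tyr, Dct and Slc45a2 in every GFP+ library. Oca2 stood at 111% and 58.3% at P1 and at 2236% and 1696% at P6.

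**Figure D3:**
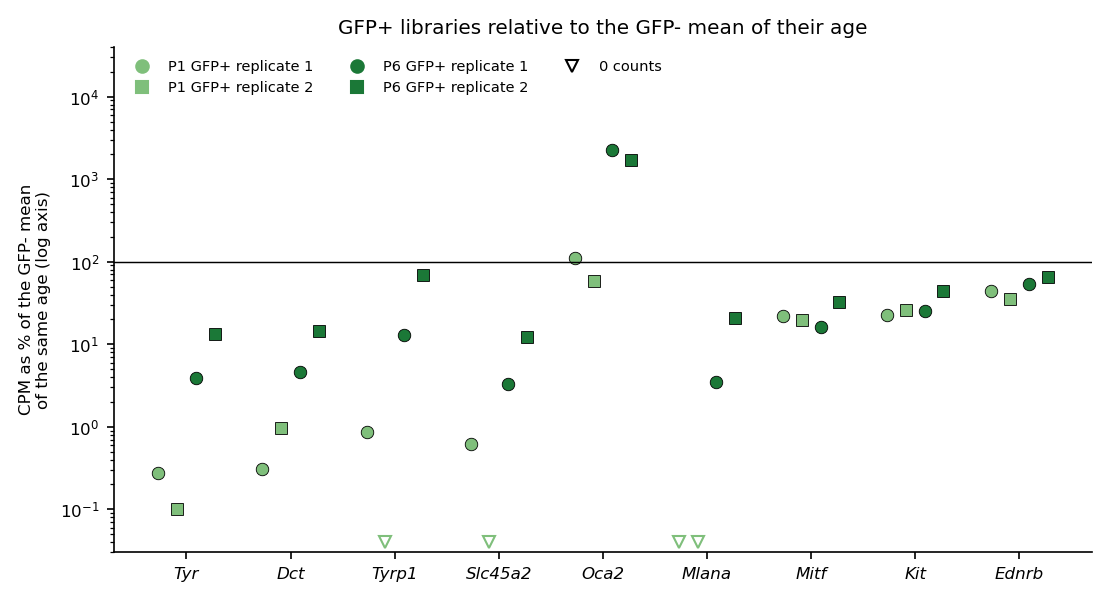
CPM in each GFP+ library as a percentage of the mean of the 2 GFP- libraries of the same age (log axis; the line is 100%), with light symbols for P1, dark symbols for P6 and open triangles for 0 counts. In Tyr, Dct, Slc45a2 and Mlana both P6 libraries lie above both P1 libraries and the P6 replicate 2 lies above replicate 1, whereas Oca2 lies far above 100% at P6.

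The proportions among pigment transcripts were compared as shares of counts within a library. Tyr made up 12.0% and 14.5% of the sum of Tyr and Dct counts in P1 GFP- cells, and 11.5% and 10.8% in P6 GFP- cells. In P6 GFP+ cells the share was 9.63% (exact 95% interval 7.08 to 12.7) and 10.4% (9.21 to 11.7), so that the intervals held the P6 GFP- shares. In the P1 GFP+ replicate 1 it was 11.9% of 42 counts (3.98 to 25.6), while replicate 2 had 1 Tyr count beside 64 of Dct (1.54%, interval 0.0389 to 8.28), below all 4 GFP- shares. Slc45a2 had no count beside those 64, and its interval of 0 to 5.60% reached just under the GFP- shares of 5.61% to 7.0%, whereas in replicate 1 its share was 11.9% (3.98 to 25.6), above the GFP- shares, which lay within that interval. The intervals cover counting error only.

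The change from P1 to P6 was next followed in the GFP- fraction. All 9 members had libraries that did not overlap between the ages: 5 were higher at P6 (as were 20.5% of the 18920 genes tested) and 4 were higher at P1 (48.9%). Tyrp1 was the single member that met the criteria, as 0.418% of genes did with the higher level at P1. Adjusted p was below 0.01 for Tyr and Slc45a2, which were higher at P6 (5.04% of genes), and for Tyrp1, which was lower (2.34%). For Tyr this did not hold with a replicate block (0.015), with library totals (0.028), with all 8 libraries in the fit (0.18) or without the P6 GFP- replicate 1 (0.032) or 2 (0.059), and for Slc45a2 it did not hold with library totals (0.0101), with all 8 libraries (0.10) or without the P6 GFP- replicate 1 (0.018) or 2 (0.028).

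Dct stood at 321 and 210.0 CPM at P1 and at 440.0 and 572 CPM at P6 (265.7 ± 78.8 to 506 ± 93.6, SD, n = 2), with a log2 change of 1.12 ± 0.22 and an adjusted p of 0.016 in edgeR's quasi-likelihood test, above 0.01. Slc45a2 went from 19.1 and 15.8 to 32.0 and 38.9 CPM (log2 1.21 ± 0.16, adjusted p = 0.0033) and Tyr from 43.8 and 35.7 to 57.1 and 69.3 CPM (log2 0.86 ± 0.15, adjusted p = 0.0090). Mlana, from 2.56 and 1.98 to 4.41 and 5.33 CPM, and Mitf, from 38.8 and 30.8 to 49.0 and 50.1 CPM, had log2 changes of 1.30 and 0.70 with adjusted p of 0.017 each. None of the 5 met the criteria, and for Dct, Mlana and Mitf the adjusted p was above 0.01. Markers of other cells of the stria vascularis were at summed levels of 531 to 895 CPM at P1 and 972 to 1228 CPM at P6 for 7 genes of marginal cells, and at 77.5 to 90.1 and 67.8 to 76.8 CPM for Cldn11 of basal cells, and their part in the pigment gene values was not tested.

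Tyrp1 went the other way, from 3.11 and 1.89 CPM (118 and 119 counts) at P1 to 0.438 and 0.428 CPM (27 and 29 counts) at P6, a log2 change of -2.32 ± 0.38 (adjusted p = 0.0084, edgeR quasi-likelihood test). Relative to Dct per kilobase in the same library, Tyrp1 was 10.8-fold lower at P6, whereas Tyr differed by 1.21-fold, Mitf by 1.35-fold, and Slc45a2 and Mlana by 1.05-fold and 1.11-fold with overlap between the ages. Oca2 was likewise 9.21-fold lower relative to Dct at P6, Kit 3.41-fold and Ednrb 3.36-fold, each without overlap. As a share of Tyrp1 plus Dct counts, Tyrp1 was 0.960% and 0.890% at P1 and 0.0994% and 0.0748% at P6. In the P6 GFP+ replicate 2 the share was 0.411% (exact 95% interval 0.188 to 0.779), above both P6 GFP- libraries, from 9 Tyrp1 counts. The Tyrp1 call did not hold without the P1 GFP- replicate 1 (log2 -1.94, under 4-fold), without the P6 GFP- replicate 1 or 2 (adjusted p = 0.071 and 0.064), with all 8 libraries in the fit (0.020) or with a replicate block (0.016).

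Kit and Ednrb were lower in value at P6 in GFP- cells, at 50.2 and 52.0 against 84.2 and 96.4 CPM and at 308 and 282 against 507 and 518 CPM. Their log2 changes of -0.63 ± 0.11 and -0.60 ± 0.12 did not pass (adjusted p = 0.010 and 0.018, edgeR quasi-likelihood test; the unrounded value for Kit was above 0.01). Oca2 was also lower, at 0.357 and 0.192 against 0.792 and 1.96 CPM (adjusted p = 0.041). Mast cell transcripts differed between the P1 GFP- libraries: the mast cell marker list without Hdc summed to 14.9 CPM in replicate 1 and 1.43 CPM in replicate 2. Ms4a2 was at 0 counts in all 8 libraries, and Kit was higher in replicate 2. With Hdc (0.765 and 0.475 CPM) the list summed to 15.7 and 1.90 CPM in these 2 libraries. Hdc ran against the rest of the list, being higher in GFP+ cells, at 15.9 and 15.1 CPM at P1 and 32.4 and 20.4 CPM at P6. Summed macrophage markers were at 183 to 229 CPM in P1 and 446 to 499 CPM in P6 GFP- cells, beside the higher Mitf, and the part of these cells in the Mitf values was not tested.

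**Figure D4:**
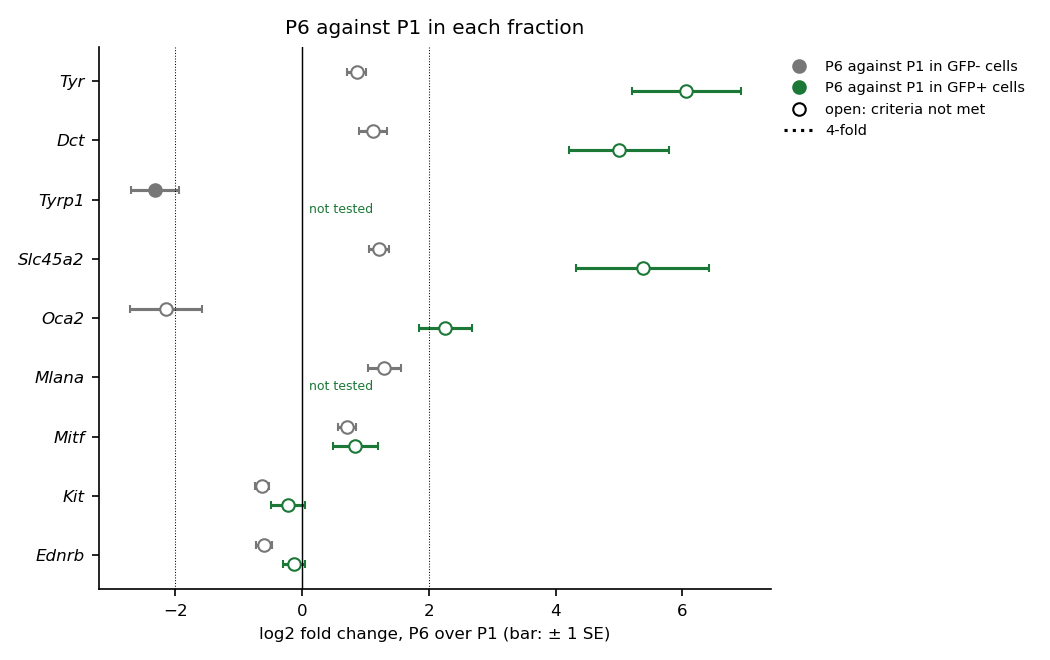
Log2 fold change of P6 over P1 in GFP- cells (grey) and GFP+ cells (green), with bars of 1 SE from edgeR; filled points met the criteria, dotted lines mark 4-fold, and genes too low to be tested are marked. Tyrp1 and Oca2 lie left of 0 in GFP- cells while Tyr, Dct, Slc45a2, Mlana and Mitf lie right of it, and Tyr, Dct and Slc45a2 in GFP+ cells lie at 5.0 to 6.06 with bars of 0.79 to 1.04.

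In the GFP+ fraction Tyr, Dct, Slc45a2 and Oca2 had higher values at P6 than at P1, Kit and Ednrb did not, and no member met the criteria. Marker lists of other cell types had higher sums in the same libraries: Schwann cell markers were at 147 to 294 CPM at P1 and 930.2 to 2324 CPM at P6, macrophage markers at 7.43 to 9.71 and 32.1 to 72.7 CPM, and endothelial markers at 24.1 to 28.0 and 54.7 to 221 CPM, and their part in the result was not tested. Of the 7 tested (Tyrp1 and Mlana were below the filter on low counts), 0 met the criteria by the edgeR quasi-likelihood test, which called 2.56% of the 17213 genes tested (441 genes). DESeq2 called 4 members and 1039 genes in all. Tyr went from 5 and 1 counts to 44 and 253 (log2 6.06 ± 0.86, adjusted p = 0.012), Dct from 0.807 and 2.57 to 23.2 and 73.0 CPM (log2 5.0 ± 0.79, adjusted p = 0.016), and Slc45a2 from 5 and 0 counts to 21 and 131 (log2 5.37 ± 1.04, adjusted p = 0.026). Both P6 libraries lay above both P1 libraries in these genes, as in 7 of the 9 members and in 29.3% of all genes tested, and the spread between the P6 replicates was wide. Without the P6 replicate 2 the log2 changes were 4.93 for Tyr, 4.06 for Dct and 4.13 for Slc45a2. Then 4 members met the criteria, among 1244 genes in all, and without replicate 1 also 4, among 1641 genes.

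Mlana in GFP+ cells had no count at P1 and 3 and 30 counts at P6, at least 16.3-fold higher at P6 against the limit of 3 counts over the P1 pair, with most of the counts from replicate 2. Tyrp1, with 1 count at P1 and 10 at P6, had a pooled ratio of 14.8 and an exact 95% counting interval of 2.11 to 644. Oca2 went from 1.53 and 0.803 to 6.13 and 4.65 CPM (log2 2.26 ± 0.42, adjusted p = 0.023). Mitf, Kit and Ednrb had log2 changes of 0.84 ± 0.36, -0.22 and -0.13, which did not pass (adjusted p = 0.15, 0.59 and 0.61).

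The change of the GFP+ to GFP- ratio between the ages was tested directly as an interaction over all 8 libraries. At an adjusted p below 0.01, 1.93% of 19233 genes passed and 0 of the 9 members did in edgeR. DESeq2 called 6 members, and it also called more of all genes than edgeR did. The P1 log2 ratio of GFP+ to GFP- minus that of P6 was -5.21 ± 0.88 for Tyr (adjusted p = 0.014), whose ratio was far below 1 at both ages, and -4.39 ± 0.78 for Oca2 (adjusted p = 0.017), whose ratio was near 1 at P1 and above 1 at P6. For Dct the difference was -3.88 ± 0.82 (adjusted p = 0.033) and for Slc45a2 -4.17 ± 0.99 (adjusted p = 0.047). Without the P6 GFP+ replicate 2, Tyr (-4.05, adjusted p = 0.0013) and Oca2 (-4.60, adjusted p = 0.0081) passed in the edgeR fit, with Dct and Slc45a2 at -2.90 each. Mitf, Kit and Ednrb had differences of -0.12, -0.39 and -0.45 (adjusted p = 0.90, 0.51 and 0.33). At an adjusted p below 0.05, 5 of the 9 members passed (Tyr, Oca2, Tyrp1, Dct and Slc45a2), as did 6.38% of all genes. Since the 4 comparisons share libraries, their values are given side by side and are not independent of each other.

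Genes that work with the members in pigment cells were followed as 3 lists. Of 20 further melanosome and pigment genes, 5 were lower in GFP+ cells at P1 and met the criteria (11.4% of all genes), 1 was higher (6.46% of all genes) and 14 did not meet them, with a median log2 difference of -0.91. Gpnmb, a melanosome glycoprotein that macrophages also express, was at 74.6 and 54.3 CPM in GFP- and 0.153 and 0.683 CPM in GFP+ cells (log2 -7.40 ± 0.46, adjusted p = 7.1e-05, edgeR quasi-likelihood test). Trpm1, a cation channel of melanocytes and retina, was at 28.8 and 25.5 against 0.393 and 0.321 CPM, and Tspan10 at 4.20 and 3.80 against 0.0436 and 0.121 CPM (2 and 3 counts). Pmel, which forms the fibrils on which melanin is laid down, was at 115 and 96.0 against 3.82 and 4.38 CPM (log2 -4.59 ± 0.15), and the ocular albinism gene Gpr143 was the last of the 5 at log2 -3.44.

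Mreg, which encodes melanoregulin, was the exception in that list, at 62.9 and 71.4 CPM in P1 GFP+ against 6.31 and 12.3 CPM in GFP- cells (log2 2.94 ± 0.30, adjusted p = 4.8e-04, edgeR quasi-likelihood test). At P6 it stood at 83.1 and 63.0 against 2.20 and 1.68 CPM. Mreg thus shared the direction of Oca2 at P6, while at P1 Oca2 did not separate. At P6, 3 of the 20 genes were lower in GFP+ cells (Gpr143, Tspan10 and Rab32, beside 3.1% of all genes). The 1 higher gene was Mreg, beside 4.88% of all genes, and the list median was -0.94. In neither fraction did a gene of the list meet the criteria between ages, although Pmel in GFP- cells went from 115 and 96.0 to 50.8 and 59.8 CPM (log2 -0.75 ± 0.13, adjusted p = 0.011), the direction of Tyrp1 and not that of Dct. Pmel was the 1 gene of this list whose interaction passed (log2 -2.66 ± 0.20, adjusted p = 7.3e-04), its GFP+ level being 3.82 and 4.38 CPM at P1 and 14.2 and 15.0 CPM at P6, nearly equal in the P6 replicates.

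Of 8 transcription factors of the melanocyte lineage, 6 were lower in GFP+ cells at P1 and met the criteria, beside 11.4% of all genes, with a list median of -3.66. Pax3, which acts upstream of Mitf, had 1 and 0 counts in GFP+ cells and 4.94 and 3.26 CPM in GFP- cells. Lef1 (144 and 128 against 3.29 and 3.33 CPM), Zeb2 (326 and 261 against 13.5 and 12.1 CPM) and Snai2 (12.0 and 9.51 against 0.742 and 0.522 CPM) were the next by size. These factors also act in mesenchyme, glia or blood cells. Sox10, the neural crest factor that activates Mitf and Dct and is also expressed in otic epithelium, ran the other way, at 275 and 286 CPM in GFP+ against 95.9 and 148 CPM in GFP- cells at P1 (log2 1.31 ± 0.20, adjusted p = 0.0025, below 4-fold). At P6, 3 of the 8 were lower (Pax3, Irf4 and Snai2, beside 3.1% of all genes) and 1 higher (Tbx2, beside 4.88%). Irf4, a partner of MITF at Tyr, was the 1 factor that changed with age in GFP- cells, from 1.87 and 1.35 to 8.77 and 10.4 CPM (log2 2.78 ± 0.26, adjusted p = 0.0011), where 1.43% of all genes were higher at P6.

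The ligand and receptor list held 12 genes, of which 11 were tested between fractions; 4 were lower in GFP+ cells at P1 (Ednra, Edn3, Kitl and Met, beside 11.4% of all genes), with a list median of -1.82, and none met the criteria at P6. Kitl encodes the ligand of KIT and Edn3 that of EDNRB. Edn3 was at 7.94 and 7.95 CPM in P1 GFP- cells and 0.611 and 0.201 CPM in P1 GFP+ cells, and at 13.1 and 11.8 against 0.844 and 3.01 CPM at P6. Kitl was at 27.5 and 35.3 CPM in P1 GFP- cells and at 2.62 and 1.93 CPM in P1 GFP+ cells, but at P6 it was at 28.5 and 28.1 against 19.0 and 26.3 CPM. It was the 1 gene of the 3 lists to meet the criteria between ages in GFP+ cells (log2 3.39 ± 0.28, adjusted p = 0.0036, edgeR quasi-likelihood test; 1.63% of all genes were higher at P6), and its interaction passed (log2 -3.32 ± 0.32, adjusted p = 0.0017). In the same list 1 gene, Ece1, passed the interaction in the other direction. Its level in GFP+ against GFP- cells was 377 and 443 against 154 and 147 CPM at P1. At P6 it was 77.7 and 126 against 151 and 151 CPM. The receptor Kit was at 20.5 and 23.3 CPM in GFP+ cells at P1 and at 12.9 and 22.3 CPM at P6.

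**Figure D5:**
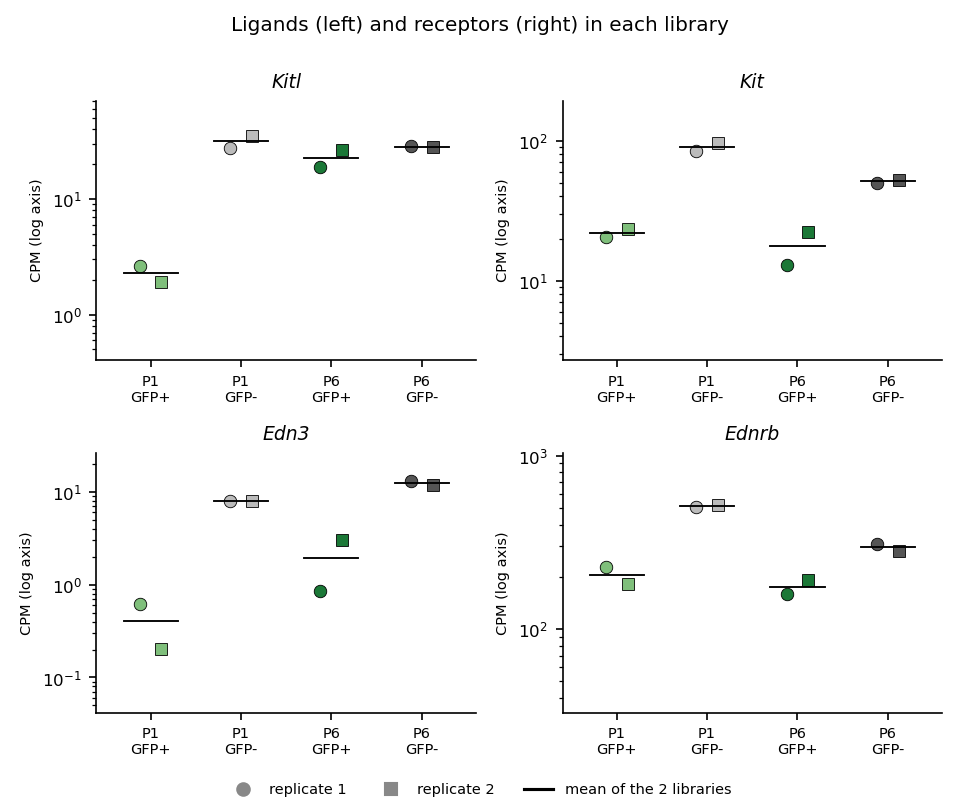
CPM (log axis, a separate range in each panel) of the ligands Kitl and Edn3 on the left and of their receptors Kit and Ednrb on the right, in the 8 libraries, with a line at each group mean. Kitl in GFP+ cells lies at 2.62 and 1.93 CPM at P1 and at 19.0 and 26.3 CPM at P6, near the GFP- level, whereas Edn3, Kit and Ednrb stay lower in GFP+ cells at both ages.

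The potassium channel Kcnj10, through which intermediate cells are known to generate the endocochlear potential and which supporting cells and glia use too, was higher in GFP+ cells, at 129.9 and 126 against 38.8 and 48.1 CPM at P1 and at 414 and 512 against 87.3 and 101 CPM at P6 (log2 2.29 ± 0.20 at P6, adjusted p = 0.0017, edgeR quasi-likelihood test). Its level therefore did not follow the pigment genes across the fractions. Within GFP- cells it went up by 1.30 ± 0.14 on the log2 scale between P1 and P6 (adjusted p = 0.0015, below 4-fold), by about as much as Dct and Mlana. Kcnj13 was at 2.53 to 7.47 CPM in the GFP+ and 4.66 to 13.2 CPM in the GFP- libraries and did not meet the criteria at either age.

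Likeness to Dct was measured by Pearson's r of log2 CPM over the 8 libraries among 16346 genes, as a description with no test, since the 8 points form 4 groups that share fraction and age. Gpnmb was the most alike (r = 0.999). The next 9 were Gata6 (0.996), Elf4 (0.996), Clec4a2 (0.993), Mical2 (0.993), Spon2 (0.993), Ethe1 (0.993), Ptrf (0.992), Lcp1 (0.992) and Sfpi1 (0.992), several of which are known from blood or vascular cells. Among the members, Mlana (0.985, rank 58) and Tyr (0.983, rank 92) were the closest, followed by Slc45a2 (0.968), Mitf (0.928), Tyrp1 (0.826), Kit (0.703) and Ednrb (0.599). Oca2 had r = -0.365, the single negative value among the members.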

How the data were processed

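Total RNA of sorted cells was made into poly(A)-selected TruSeq libraries and sequenced as paired ends. Per the labels, the authors aligned the reads with TopHat 1.4.0 to mm9, counted them with HTSeq and used DESeq 1.9.2; the deposited files hold raw counts per Ensembl gene. Strand and overlap settings are not given in the sources used here; no exon of a member overlapped another gene. Rows that name no gene held 23.8% to 35.3% of all listed counts and were left out. Library depth differed up to 3.81-fold, and rates below about 0.1 CPM rest on few counts.

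The members and gene lists were chosen with earlier results of these data known. From the counts, CPM was computed on gene totals and CPM per kilobase on union exon length. Differences were tested with edgeR 4.0.16 in R 4.3.3 (filterByExpr with minimum count 10 and total 15, TMM, glmQLFit, glmQLFTest, Benjamini-Hochberg over all genes tested) on the 4 libraries of each comparison, or on all 8 for the interaction; criteria were p and adjusted p below 0.01 and fold above 4. DESeq2 1.42.0, other scalings, no filter, a shared fit, a replicate block, an adjusted p below 0.05 and leaving out each library were alternatives. In data simulated for the P6 fraction comparison (18595 genes), 100% of 200 changed genes were recovered. Recovery at the members' own counts and replicate spread was not tested. Symbols came from NCBIM37 (34391 of 36536 genes). Named were all members, the 4 genes of each pigment list with the greatest P1 fold among those that met the criteria, and the 10 genes most like Dct. Other list genes (Gpr143, Mreg, Rab32, Irf4, Tbx2, Sox10, Ece1, Kcnj10, Kcnj13, Slc1a3, Slc17a8, Tmc1, Hdc, Kcne1, Slc12a2) were named after their values were seen. Replicate libraries differed beyond sampling noise (chi-square per degree of freedom 15.1 to 58.0).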

Additional observations from a re-analysis of the deposited data

How the results depend on the processing

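At P1 the 6 members that met the criteria became 7 with library totals and 8 at adjusted p below 0.05 with no criterion on fold. The count stayed at 6 under the other alternatives that kept every library. At P6 the 5 became 1 with library totals, 8 at adjusted p below 0.05 with no criterion on fold and 0 to 6 when a library was left out (0 without the GFP- replicate 1 or 2). Between ages in GFP- cells the 1 became 2 with no filter, 9 at adjusted p below 0.05 with no fold criterion, 0 with all 8 libraries, and 0 to 1 with a library left out. In GFP+ cells the 0 became 4 with DESeq2, 5 with no filter, 3 with all 8 libraries, 4 at adjusted p below 0.05 with no fold criterion and 0 to 4 with a library left out. For the interaction the 0 became 6 with DESeq2, 6 with no filter, 5 at adjusted p below 0.05 and 0 to 5 with a library left out. Where a library is left out, the lone sample is assumed to vary like the other group. The cause of these moves was not tested.

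Replicate numbers are shared labels and nothing says that they pair samples: the replicate differences of same-numbered libraries correlated at r = 0.028 (P1), 0.076 (P6), -0.313 (GFP- ages) and -0.124 (GFP+ ages). With a replicate block, 0 members met the criteria between ages in GFP- cells, 2 in GFP+ cells, 5 between fractions at P6 and 0 in the interaction.

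Over all genes, the 3331 called at P1 became 10022 at adjusted p below 0.05 with no fold criterion, which was dropped in the same way in the comparisons that follow (the interaction had none). The 1459 at P6 became 2260 (DESeq2), 2528 (no filter), 2355 (all 8 libraries), 6122 (adjusted p below 0.05) and 0 to 3261 (a library left out). The 350 between ages in GFP- cells became 661 (no filter), 3619 (adjusted p below 0.05) and 131 to 674 (a library left out), and the 441 in GFP+ cells became 1039 (DESeq2), 1387 (no filter), 1012 (all 8 libraries), 3511 (adjusted p below 0.05) and 135 to 1641 (a library left out). The 372 of the interaction became 1422 (DESeq2), 2400 (no filter), 151 (replicate block), 1228 (adjusted p below 0.05) and 28 to 1407 (a library left out).

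Of 500 alternative values of the members' log2 changes, 398 kept their direction and call, 75 passed where the reported value did not, 20 no longer passed and 7 changed sign, all 7 in differences that had not passed: with a library left out, the Oca2 difference between fractions at P1 ran from -0.71 to 0.72 (0.26 without the GFP+ replicate 2, 0.72 without the GFP- replicate 2), the changes between ages in GFP+ cells from -0.31 to 0.067 for Ednrb (without the P1 replicate 1) and from -0.63 to 0.10 for Kit (without the P6 replicate 1), and the interactions from -0.50 to 0.47 for Mitf (0.02 without the P1 GFP- replicate 1, 0.47 without the P6 GFP+ replicate 2) and from -0.70 to 0.030 for Kit (without the P6 GFP+ replicate 2). Depth limits Tyrp1 and Mlana, whose GFP+ values rest on 0 to 30 counts, and the Tyr and Slc45a2 levels in P1 GFP+ cells.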
